A study of Homo sapiens with 12 samples.

Results

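Glycolysis, the steps that follow pyruvate and the transporters that bring glucose in and carry lactate out were described through 36 genes, chosen by symbol and found among the 60617 Ensembl gene identifiers of the expression tables. RNA was sequenced from A549 cells, an established human lung adenocarcinoma line, after siRNA transfection. All groups were grown in DMEM with 10% fetal bovine serum and harvested 24 hours after transfection. The 4 libraries of siCo received a control siRNA, the 4 of siYAP/TAZ#1 a first combination of siRNAs against YAP and TAZ, and the 4 of siYAP/TAZ#2 a second one. Every treated library had both genes targeted together, so the loss of YAP and that of TAZ cannot be told apart.

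Glycolysis splits glucose into pyruvate in the cytosol, with a net gain of ATP and NADH. Pyruvate is then either reduced to lactate and exported, or carried into mitochondria, where the pyruvate dehydrogenase complex turns it into acetyl-CoA, and pyruvate dehydrogenase kinases switch that complex off. Many tumour lines, A549 among them, turn much of their glucose into lactate, and genes of the pathway are classical targets of the hypoxia-inducible factors and of MYC. YAP and TAZ are coactivators of the TEAD transcription factors and are held back by the Hippo kinases.

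Libraries held 29.6 to 38.3 estimated counts in units of 1e6. Levels are CPM, counts per 1e6 counts of a library, after TMM scaling, which sets the libraries to a common scale from the bulk of their genes. Changes are log2 values ± standard error from edgeR's quasi-likelihood test over 21581 genes, and a gene was called changed at a Benjamini-Hochberg adjusted p under 0.05. The series calls the 4 libraries of a group biological replicates, and the p-values measure only the spread between them. The targets were lower in every treated library: with siYAP/TAZ#1 and siYAP/TAZ#2 in turn, YAP1 fell from 121 ± 4.03 CPM (SD, n = 4) to 18.7 and 17.4 CPM and WWTR1, the gene of TAZ, from 240.6 ± 9.71 to 32.9 and 32.4 CPM. Of the markers looked up, KRT8 (2383 CPM), KRT18 (845 CPM), ALDH1A1 (1602 CPM) and AKR1B10 (1253 CPM) were high in siCo, while CDKN2A and CDKN2B, which A549 cells have lost, were at or near 0. KRT19 (155 to 228 and 275 CPM), CDH1 (25.5 to 53.6 and 37.8 CPM), EPCAM and AKR1B10 rose with both combinations. EPCAM was low (2.26 to 3.22 and 3.12 CPM) and its treated libraries overlapped siCo. In all, 4 of 7 epithelial markers were higher with siYAP/TAZ#1, beside 16.4% of all genes tested. With siYAP/TAZ#2, 5 were higher and 1, KRT18 (709 CPM), was lower, beside 19% and 19.2% of all genes tested. The siYAP/TAZ#2 libraries overlapped siCo for KRT18 and ALDH1A1. The endothelial and immune markers stood below 1 CPM in every group mean except CD14, which rose from 2.23 to 5.76 and 7.07 CPM. Among fibroblast markers COL1A1 stood at 109.9 CPM in siCo and rose to 152.7 CPM with siYAP/TAZ#1 (0.47 ± 0.11), and was not called with siYAP/TAZ#2 (117.3 CPM). COL1A2, PDGFRA, PDGFRB and DCN lay below 1 CPM in every group mean, and PDGFRA rose with siYAP/TAZ#2 (0.328 to 0.868 CPM). The part of these markers in the results was not tested. In RNA from whole cultures, fewer cells of one kind and less RNA per cell cannot be told apart.

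Per transcript length the pathway ran from very abundant transcripts to almost none. Levels of different genes are compared as TPM, an abundance per transcript length that sums to 1e6 in a library. TPM values were rescaled over coding genes, because miRNA genes took 26.3% to 62.8% of the deposited TPM, a share that differed widely between libraries. In siCo the highest members were GAPDH (7673 ± 362.6 TPM over coding genes, SD, n = 4), PKM (3862 ± 139.6), ALDOA (2246 ± 52.4), ENO1 (2138 ± 62.3), TPI1 (2126 ± 133) and GPI (1310.0 ± 85.9). These 6 encode enzymes of the trunk of the pathway, and ALDOA, ENO1 and TPI1 were not separated from each other by more than their spread. LDHA followed at 1155 ± 93.5, and the trunk enzymes PGAM1 (499 ± 12.1) and PGK1 (357 ± 31.3) lay lower. PFKP (577 ± 25.4), LDHB (534 ± 10.7), SLC2A1 (519 ± 46.8) and PFKFB3 (518 ± 20.8) formed a middle tier in which the last 3 did not differ beyond their spread. The kinase PDK1 (5.01 ± 0.758), the carrier subunit MPC1 (4.01 ± 0.757) and the hexokinase HK2 (0.717 ± 0.215) were low. TXNIP (0.229), ARRDC4 (0.166) and the gluconeogenic FBP1 (0) were at the bottom. Together the 36 genes took 2.36% to 2.52% of the coding TPM in siCo libraries. The range with siYAP/TAZ#1 was 2.30% to 2.49%, which overlapped siCo, and that with siYAP/TAZ#2 was 2.20% to 2.35%, which did not. As a share of the counts of coding genes, siYAP/TAZ#2 (1.92% to 2.04%) overlapped siCo (2.03% to 2.17%) at the edge.

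**Figure D1:**
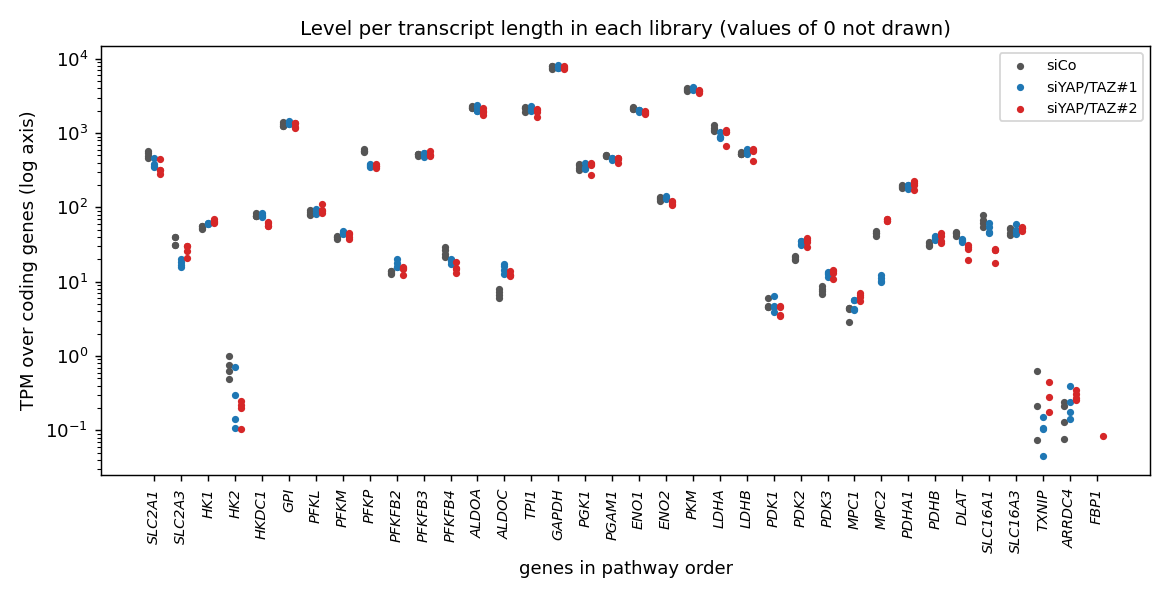
Level of each of the 36 genes in each of the 12 libraries, as TPM rescaled over coding genes on a log axis, with genes in pathway order and 1 colour per group. GAPDH and PKM lie at the top, while TXNIP, ARRDC4 and FBP1 lie below 1 TPM in every library.

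Of the 36 genes 34 passed the filter on low counts and 2, TXNIP and FBP1, did not. With siYAP/TAZ#1, 16 of the 34 fell and 4 rose, that is 47.1% and 11.8%, where 18.5% of all genes tested fell and 16.4% rose (34.9% in either direction). With siYAP/TAZ#2, 18 fell and 6 rose (52.9% and 17.6%), where 19.2% of all genes fell and 19% rose (38.2% in either direction). The median log2 change of the 34 was -0.15 and -0.19, beside 0.02 for all genes tested in both comparisons. The groups of 4 libraries did not overlap for 20 of the 34 genes with siYAP/TAZ#1 and for 24 with siYAP/TAZ#2, beside 38.7% and 34.6% of all genes tested. Both comparisons use the same siCo libraries, so their values are set side by side and are not independent of each other. Most of the changes were small: 4 members with siYAP/TAZ#1 and 2 with siYAP/TAZ#2 were called with a change of at least 1 on the log2 scale, beside 5.41% and 6.86% of all genes tested.

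Many of the small decreases depended on the scaling. TMM factors ran from 0.887 to 0.944 in siCo, and those of treated libraries from 0.967 to 1.099. With library size alone the median change of all genes tested moved from 0.02 to 0.20 in the first comparison and 0.21 in the second, and the median of the members moved to 0.02 and -0.0041, still below that of all genes. The counts were then 8 lower and 7 higher with siYAP/TAZ#1, and 8 lower and 9 higher with siYAP/TAZ#2. HK1, PFKM and PDHB joined the higher genes in the first case, and PFKL, PDHB and SLC16A3 in the second. The share of all genes called was taken on the TMM scale only, so the counts with library size alone have no such share beside them. Under 5 other scalings (library size alone, relative log expression factors, upper quartile factors, TPM over coding genes and coding genes alone), 5 of the 16 decreases and all 4 increases with siYAP/TAZ#1 kept their call in every one, as did 8 of the 18 decreases and all 6 increases with siYAP/TAZ#2. Every decrease named here is therefore a decrease relative to the bulk of genes, and the decreases that kept their call under all 5 were those of SLC2A1, SLC2A3, HK2 and PFKP with both combinations, of MPC2 with siYAP/TAZ#1, and of HKDC1, PFKFB4, DLAT and SLC16A1 with siYAP/TAZ#2. The last 2 of the 5 were chosen after seeing the data, and relative log expression factors nearly repeat TMM (member median -0.155 beside -0.154 with siYAP/TAZ#1). The 5 leave out the deposited TPM, on which limma (pseudocount 1) called 1 member lower and 2 higher with siYAP/TAZ#1. There SLC2A1 (-0.19, adjusted p = 0.525), SLC2A3 (-0.69, adjusted p = 0.119) and HK2 (-0.15, adjusted p = 0.184) lost their calls. With siYAP/TAZ#2 limma on the deposited TPM called 1 member lower and 5 higher. In each comparison at most 1 of the decreases that held under all 5 scalings therefore kept its call on the deposited TPM.

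**Figure D2:**
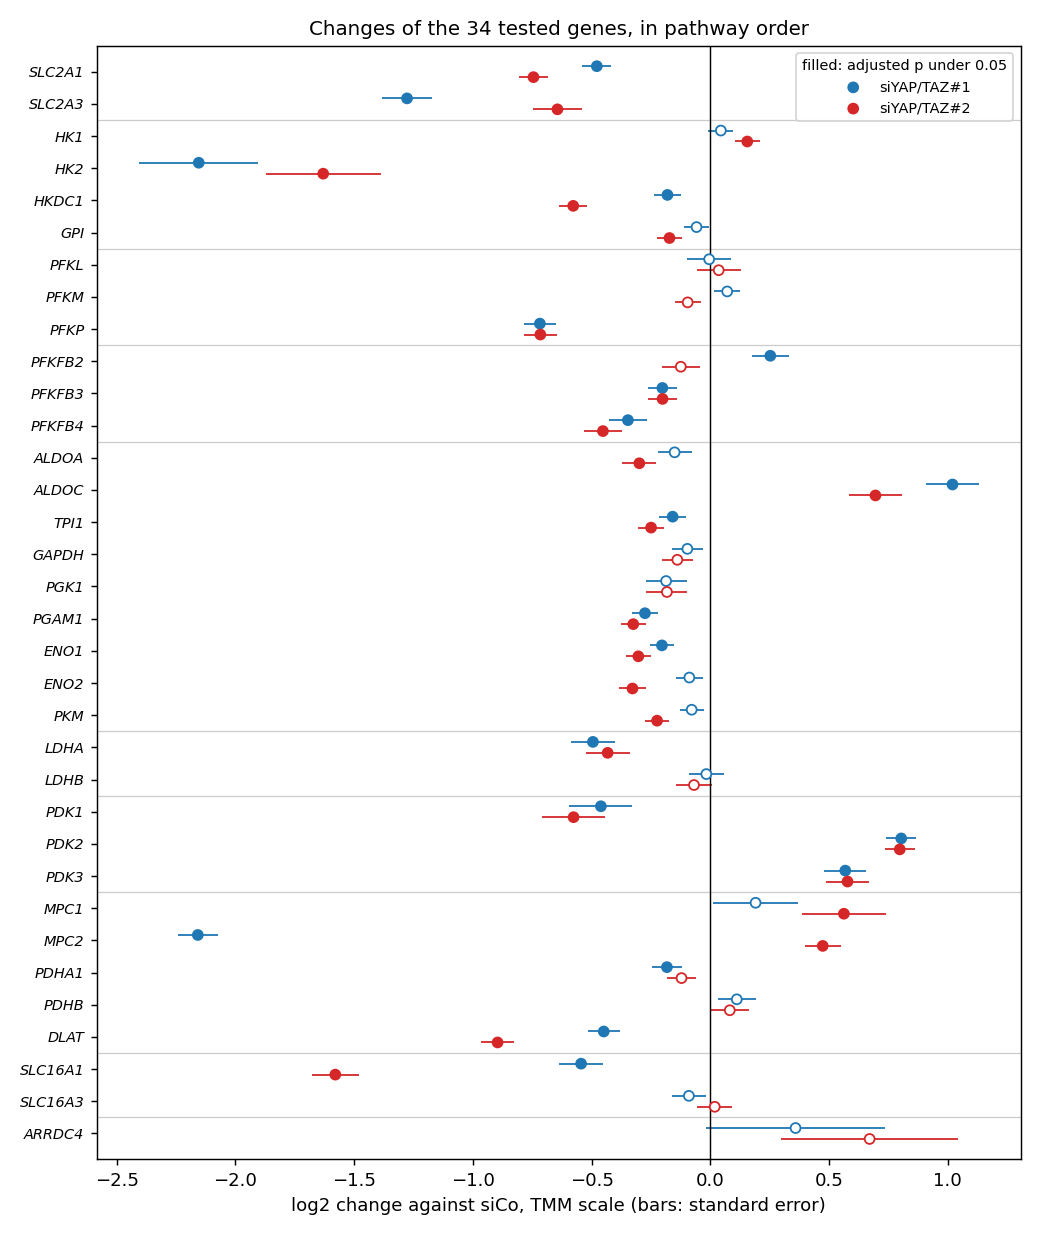
Log2 change against siCo ± standard error for the 34 genes tested, on the TMM scale, in pathway order from glucose transport at the top to the arrestin-domain gene ARRDC4, with filled points for adjusted p under 0.05. HK2, SLC2A3, MPC2 and SLC16A1 reach beyond -1 with 1 or both combinations, and ALDOC, PDK2 and PDK3 lie to the right with both; TPI1 with siYAP/TAZ#1 and GPI with siYAP/TAZ#2 turn to the other side of 0 with library size alone.

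Both glucose transporters fell. SLC2A1 (ENSG00000117394, chromosome 1, 42925375 to 42959176, minus strand), which encodes the ubiquitous transporter GLUT1, stood at 459, 452, 424 and 436 CPM in siCo, at 305, 343, 306 and 318 CPM with siYAP/TAZ#1 and at 284, 242, 271 and 259 CPM with siYAP/TAZ#2. The 3 groups did not overlap. The changes were -0.48 ± 0.06 (adjusted p = 1.29e-05) and -0.74 ± 0.06 (adjusted p = 9.08e-08), and the level was lower with siYAP/TAZ#2 than with siYAP/TAZ#1 (log2 difference -0.27 ± 0.06, adjusted p = 0.00578). Both decreases against siCo kept their call under all 5 other scalings, and the difference between the combinations lost it with TPM over coding genes (-0.20, adjusted p = 0.381).

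SLC2A3 (ENSG00000059804, chromosome 12, 7919230 to 7936275, minus strand) encodes the high-affinity transporter GLUT3 and fell in the other order. Its libraries read 49.99, 58.2, 45.8 and 60.1 CPM in siCo, 22.3, 21.4, 21.3 and 23.4 CPM with siYAP/TAZ#1, and 27.2, 38.5, 37.3 and 34.1 CPM with siYAP/TAZ#2. Here too the 3 groups were separate, with siYAP/TAZ#1 lowest. The changes were -1.28 ± 0.11 (adjusted p = 1.21e-07) and -0.64 ± 0.10 (adjusted p = 0.000112), and siYAP/TAZ#2 exceeded siYAP/TAZ#1 by 0.63 ± 0.11 (adjusted p = 0.000424). Reads of SLC2A3 can be split with a processed copy, SLC2A3P1, which together with 2 other copies took 0.216% to 18.3% of the summed counts. The sum of SLC2A3 and SLC2A3P1 gave the same order, with 60.1 ± 7.07 CPM in siCo, 26.3 ± 1.51 with siYAP/TAZ#1 and 35.99 ± 5.54 with siYAP/TAZ#2 (SD, n = 4). The changes against siCo and the difference between the combinations kept their call under all 5 other scalings.

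**Figure D3:**
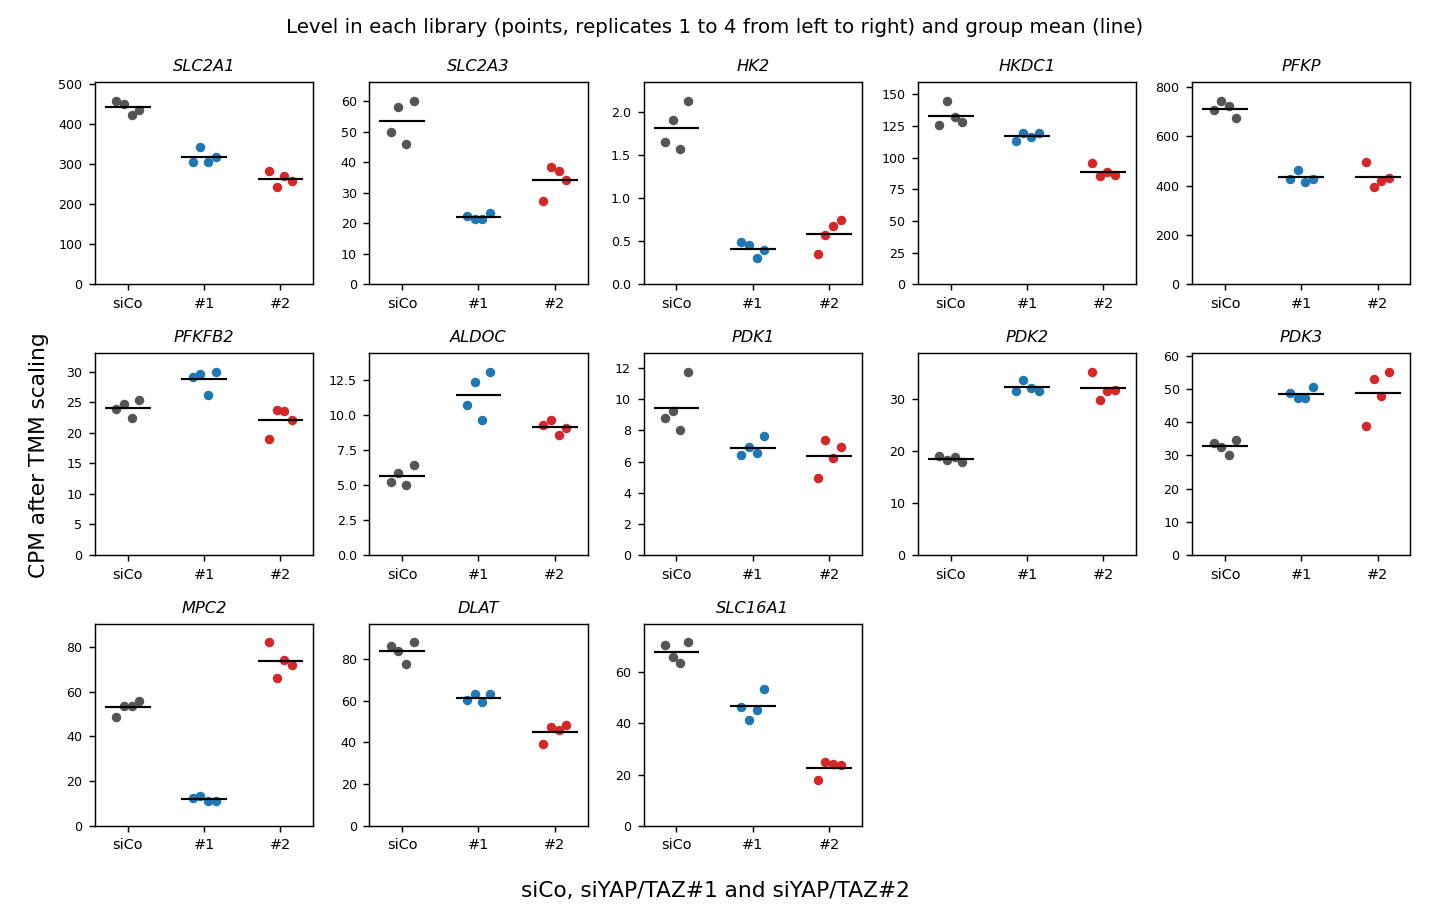
CPM after TMM scaling in each library (points, replicates 1 to 4 from left to right) and group mean (line) for 13 of the genes whose libraries are listed (LDHA is not plotted), with each axis starting at 0. MPC2 is low with siYAP/TAZ#1 (11.9 CPM) and high with siYAP/TAZ#2 (73.6 CPM), and SLC16A1 falls stepwise from siCo to siYAP/TAZ#1 to siYAP/TAZ#2.

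Hexokinases trap glucose in the cell by phosphorylating it, and A549 cells expressed mainly HK1, the broadly expressed form, and HKDC1, the hexokinase domain containing protein that neighbours it on chromosome 10. HK2, the insulin- and hypoxia-responsive form raised in many tumours, was scarce. HK2 (ENSG00000159399, chromosome 2, 74833981 to 74893359, plus strand) stood at 1.65, 1.91, 1.57 and 2.13 CPM in siCo, at 0.490, 0.451, 0.300 and 0.394 CPM with siYAP/TAZ#1 and at 0.347, 0.567, 0.672 and 0.751 CPM with siYAP/TAZ#2. In CPM every treated library lay below every siCo library. These are changes of -2.15 ± 0.25 (adjusted p = 5.24e-06) and -1.63 ± 0.24 (adjusted p = 5.34e-05), measured on 42 to 75 counts per siCo library and 11 to 25 counts per treated library. The difference between the combinations was 0.52 ± 0.27 (adjusted p = 0.25). On log2 TPM over coding genes with a pseudocount of 1 the HK2 changes were -0.40 and -0.52, and they kept their call. The gene lies below 1 TPM, where this pseudocount shrinks changes. In addition, siYAP/TAZ#1 replicate 1 stood at 0.708 TPM over coding genes, within the siCo range of 0.489 to 0.998. On that scale siYAP/TAZ#1 therefore overlapped siCo.

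HKDC1 (ENSG00000156510, chromosome 10, 69220303 to 69267559, plus strand) stood at 126, 145, 132 and 128 CPM in siCo, at 113, 119, 116 and 119 CPM with siYAP/TAZ#1 and at 95.3, 85.2, 88.3 and 86.6 CPM with siYAP/TAZ#2. The groups did not overlap. The fall was -0.58 ± 0.06 with siYAP/TAZ#2 (adjusted p = 1e-06), -0.40 ± 0.06 from siYAP/TAZ#1 to siYAP/TAZ#2 (adjusted p = 0.000141), and -0.18 ± 0.06 with siYAP/TAZ#1 (adjusted p = 0.0243). That last call was lost when siCo replicate 2 or siYAP/TAZ#1 replicate 1 or 3 was left out (adjusted p up to 0.0844), and with TPM over coding genes its value turned to 0.0062. HK1 stood at 109.6 ± 5.58 CPM in siCo and changed by 0.04 ± 0.05 (not called) and 0.16 ± 0.05 (adjusted p = 0.0279), the latter lost without siCo replicate 4 or siYAP/TAZ#2 replicate 3 or 4 (adjusted p up to 0.0758). As a share of the hexokinase TPM within a library, which no scaling between libraries can move, HK1 was 40.6% ± 1.18 in siCo, 43.4% ± 1.44 with siYAP/TAZ#1 and 52.3% ± 1.73 with siYAP/TAZ#2 (SD, n = 4). The share with siYAP/TAZ#2 was above the other 2 groups in every library, while that with siYAP/TAZ#1 overlapped siCo. GPI, the isomerase that makes fructose 6-phosphate, was at 1345 ± 61.4 CPM in siCo and changed by -0.06 ± 0.05 (not called) and -0.17 ± 0.05 (adjusted p = 0.0162), a call lost with library size alone (0.02 on the log2 scale) and without siCo replicate 2 (adjusted p = 0.0642).

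Phosphofructokinase commits sugar to glycolysis, and its platelet-type subunit PFKP was the main form in these cells. PFKP (ENSG00000067057, chromosome 10, 3066333 to 3137712, plus strand) stood at 706, 745, 722 and 676 CPM in siCo, at 428, 462, 414 and 428 CPM with siYAP/TAZ#1 and at 495, 393, 417 and 429 CPM with siYAP/TAZ#2. The treated groups overlapped each other and lay wholly below siCo. PFKP fell to 60.8% and 60.9% of its siCo level, a log2 change of -0.72 ± 0.07 with either combination (adjusted p = 5.95e-07 and 4.92e-07), and the combinations differed by 0.0020 ± 0.07. Both calls held under all 5 other scalings and without any single library. The liver-type PFKL (118.5 ± 4.96 CPM in siCo) and muscle-type PFKM (53.1 ± 2.53 CPM) were not called, with changes of -0.0047 ± 0.09 and 0.04 ± 0.09 for PFKL and 0.07 ± 0.05 and -0.10 ± 0.06 for PFKM. Within the summed TPM of the 3 subunits PFKP took 82.2% ± 0.181 in siCo, 73.1% ± 0.688 with siYAP/TAZ#1 and 72.6% ± 0.263 with siYAP/TAZ#2. No treated library reached the lowest siCo share of 82.0%.

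The PFKFB enzymes make and break fructose 2,6-bisphosphate, the strongest activator of phosphofructokinase. PFKFB3, the form with the highest kinase activity, was the main one at 827.6 ± 36.1 CPM in siCo and fell with either combination (log2 changes of -0.20 ± 0.06 in both, adjusted p = 0.0145 and 0.0135). Neither call held with library size alone (-0.03 and -0.02), upper quartile factors or TPM over coding genes. PFKFB4, a hypoxia-inducible form, went from 20.3 ± 1.54 CPM to 16.0 ± 0.943 and 14.8 ± 1.12 CPM, changes of -0.35 ± 0.08 and -0.45 ± 0.08, and the second kept its call under all 5 other scalings. PFKFB2 (ENSG00000123836, chromosome 1, 207034366 to 207081024, plus strand) is the heart-type form. It stood at 23.9, 24.7, 22.4 and 25.4 CPM in siCo, at 29.1, 29.7, 26.1 and 30.03 CPM with siYAP/TAZ#1 and at 18.9, 23.8, 23.6 and 22.1 CPM with siYAP/TAZ#2. All siYAP/TAZ#1 libraries lay above the siCo libraries and siYAP/TAZ#2 overlapped siCo. PFKFB2 rose by 0.25 ± 0.08 with siYAP/TAZ#1 (adjusted p = 0.0196), changed by -0.12 ± 0.08 with siYAP/TAZ#2 (not called), and differed between the combinations by -0.38 ± 0.08 (adjusted p = 0.00301). That difference was lost with TPM over coding genes (-0.23, adjusted p = 0.162). The rise was lost without siCo replicate 1 or 3 or siYAP/TAZ#1 replicate 1, 2 or 4 (adjusted p up to 0.0700).

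From aldolase to pyruvate kinase, 3 of 9 genes fell and 1 rose with siYAP/TAZ#1, beside 18.5% and 16.4% of all genes tested. With siYAP/TAZ#2, 6 fell and 1 rose, beside 19.2% and 19%. The 9 genes had median changes of -0.15 and -0.25. The deepest decrease was -0.33, that of ENO2 with siYAP/TAZ#2. PGAM1, the phosphoglycerate mutase, went from 485 ± 8.74 CPM to 401 ± 21.5 and 387 ± 14.6 CPM, changes of -0.28 ± 0.05 and -0.32 ± 0.05 (adjusted p = 0.000677 and 0.000137). ENO1, the main enolase, went from 1978 ± 48.7 CPM to 1718 ± 65.0 and 1603 ± 56.4 CPM, changes of -0.20 ± 0.05 and -0.30 ± 0.05. TPI1, which interconverts the triose phosphates, changed by -0.16 ± 0.06 and -0.25 ± 0.06, and the first lost its call without siCo replicate 1, 2 or 4 or siYAP/TAZ#1 replicate 1 or 3 (adjusted p up to 0.121) and stood at 0.02 with library size alone. With siYAP/TAZ#2 alone, ALDOA (-0.30 ± 0.07), the neuronal enolase ENO2 (-0.33 ± 0.06) and the pyruvate kinase PKM (-0.22 ± 0.05) fell as well, and ENO2 was also lower than with siYAP/TAZ#1 (-0.24 ± 0.06, adjusted p = 0.00721). With library size alone PGAM1, ENO1, TPI1, ALDOA, ENO2 and PKM all lost their calls against siCo, with values from -0.14 (ENO2 with siYAP/TAZ#2) to 0.02 (TPI1 with siYAP/TAZ#1). Exon bases shared with other annotated genes came to 53.5% for ALDOA and 14.2% for GAPDH, and GAPDH has 65 processed copies, which took 0.0360% to 0.0626% of the summed counts. Among the genes that overlap ALDOA, AC093512.2 lies on the same strand, so part of the ALDOA counts could be assigned to either. GAPDH, the redox step of the trunk and a usual reference gene, was not called (-0.10 ± 0.06 and -0.14 ± 0.06), and nor was PGK1, the first ATP-making step (-0.19 ± 0.09 and -0.18 ± 0.09). Without siYAP/TAZ#2 replicate 1, GAPDH was called with siYAP/TAZ#2 (-0.16) and PGK1 and ALDOA with siYAP/TAZ#1 (-0.19 and -0.15), and without siCo replicate 3 PGK1 was called with both (-0.26 and -0.24).

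ALDOC, the brain-type aldolase, was the exception in this stretch. ALDOC (ENSG00000109107, chromosome 17, 28573115 to 28577264, minus strand) stood at 5.23, 5.88, 4.99 and 6.46 CPM in siCo, at 10.7, 12.4, 9.70 and 13.1 CPM with siYAP/TAZ#1 and at 9.31, 9.69, 8.57 and 9.08 CPM with siYAP/TAZ#2. No treated library overlapped siCo, and siYAP/TAZ#1 lay above siYAP/TAZ#2 in every library by a narrow margin. It rose by 1.02 ± 0.11 (adjusted p = 2.12e-06) and 0.70 ± 0.11 (adjusted p = 0.000104), calls that held under all 5 other scalings. The difference between the combinations (-0.32 ± 0.11, adjusted p = 0.0493) held in only 3 of 12 fits that left out 1 library each, those without siCo replicate 4, siYAP/TAZ#1 replicate 3 or siYAP/TAZ#2 replicate 1. Even so ALDOC made up only 0.308% ± 0.0352 of the aldolase TPM in siCo and 0.7% ± 0.0461 and 0.647% ± 0.0999 after siRNA, with ALDOA supplying nearly all of the rest.

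The lactate dehydrogenase subunits parted. LDHA (ENSG00000134333, chromosome 11, 18394388 to 18408425, plus strand), the subunit of the muscle-type enzyme that favours lactate formation, stood at 1202, 1184, 1133 and 1316 CPM in siCo, at 831, 845, 826 and 931 CPM with siYAP/TAZ#1 and at 693, 941, 970 and 979 CPM with siYAP/TAZ#2. All treated libraries lay below siCo. LDHA fell (log2 changes of -0.49 ± 0.09 and -0.43 ± 0.09, adjusted p = 0.000524 and 0.0014). With library size alone the values were -0.32 (adjusted p = 0.0387) and -0.24 (adjusted p = 0.113). With TPM over coding genes both calls were lost (-0.33, adjusted p = 0.0665, and -0.29, adjusted p = 0.0935). LDHB, the heart-type subunit, was not called (-0.02 ± 0.07 and -0.07 ± 0.07) at 288.5 ± 9.07 CPM in siCo. The share of LDHB in the TPM of both subunits was 31.7% ± 1.42 in siCo, 38.3% ± 2.27 with siYAP/TAZ#1 and 36.6% ± 1.64 with siYAP/TAZ#2, and neither treated group overlapped siCo, where the highest share was 33.4%. In the annotation 33.4% of the LDHB exon bases are shared with AC010197.2 on the same strand, so part of its counts could be assigned to either.

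The promoters of this pair are shown because 1 member fell and the other was not called, a choice made after their values were seen. The windows run from 195 to 56 bases before the first start listed by RefSeq (GRCh38.p14), read 5′ to 3′ along the gene, with matches to CACGTG (the E-box bound by MYC and the MondoA/ChREBP proteins) or to ACGTG (the core of the hypoxia response element) in capitals. The LDHA window is chr11:18394368-18394507 on the plus strand and the LDHB window is chr12:21657898-21658037 on the minus strand. These RefSeq starts differ from the GENCODE starts of the genes. The LDHA window overlaps the GENCODE span given above, and the LDHB window lies within the GENCODE span of LDHB.
LDHA: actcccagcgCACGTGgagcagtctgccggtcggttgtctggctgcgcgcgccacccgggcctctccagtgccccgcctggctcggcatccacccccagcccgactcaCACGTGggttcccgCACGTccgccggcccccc
LDHB: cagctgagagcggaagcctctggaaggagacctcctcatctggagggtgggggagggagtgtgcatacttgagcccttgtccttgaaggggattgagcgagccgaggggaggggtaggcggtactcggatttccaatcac
LDHA holds CACGTG 2 times and a further ACGTG on the other strand, and LDHB holds neither motif in the 250 bases before its start. Every CACGTG contains ACGTG, so the matches overlap. Of the other members that fell with both combinations and have a promoter listed, HK2 and DLAT hold ACGTG in that stretch. The rest of them, SLC2A1 and PFKP included, hold neither motif. PFKL and PFKM, which were not called, hold neither motif as well.

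**Figure D4:**
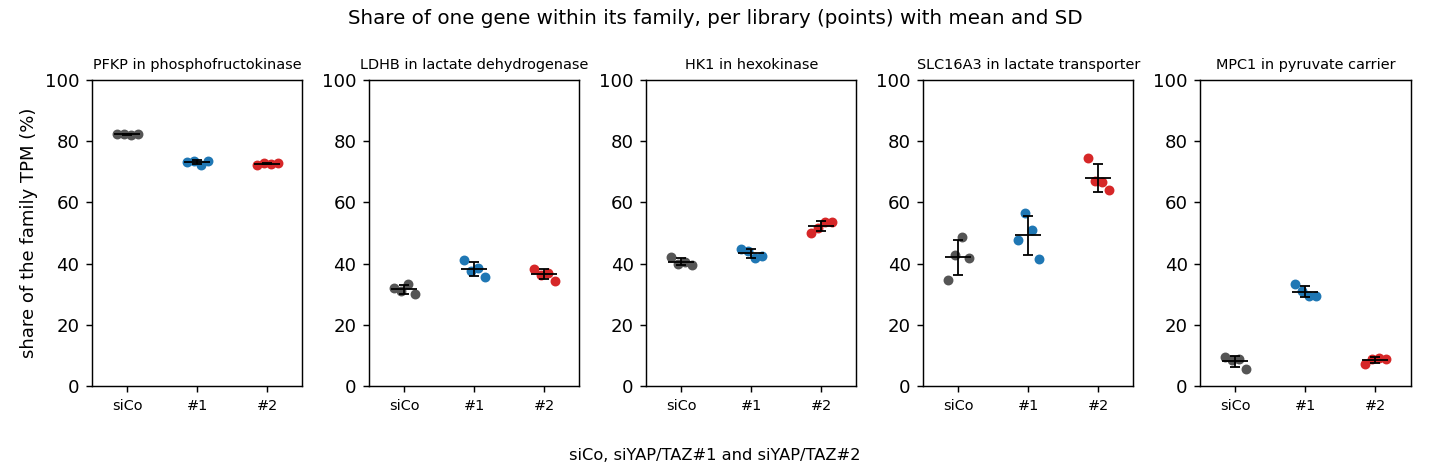
Share of 1 gene in the summed TPM of its family in each library (points), with mean and SD of 4 libraries (bars), as percent on axes from 0 to 100. PFKP falls from 82.2% to 73.1% and 72.6%, LDHB is above its siCo range with both combinations, HK1 and SLC16A3 are above it in every library only with siYAP/TAZ#2, and MPC1 is above it only with siYAP/TAZ#1.

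Pyruvate dehydrogenase kinases phosphorylate and silence the complex that burns pyruvate, and the 3 forms moved in different directions. PDK1 (ENSG00000152256, chromosome 2, 172555373 to 172608669, plus strand), the form known for its response to hypoxia, stood at 8.78, 9.27, 8.03 and 11.8 CPM in siCo, at 6.43, 6.96, 6.55 and 7.65 CPM with siYAP/TAZ#1 and at 4.92, 7.40, 6.21 and 6.92 CPM with siYAP/TAZ#2. Treated libraries were all below the lowest siCo library. It fell (log2 changes of -0.46 ± 0.13 and -0.58 ± 0.13, adjusted p = 0.0124 and 0.00264), but the first call was lost without siCo replicate 4 (adjusted p = 0.0567) and neither held with library size alone (-0.29 and -0.38) or with TPM over coding genes (-0.03 and -0.24).

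PDK2 (ENSG00000005882, chromosome 17, 50094737 to 50112152, plus strand), a widely expressed form, rose. It stood at 18.9, 18.3, 18.8 and 17.8 CPM in siCo, at 31.6, 33.6, 32.1 and 31.6 CPM with siYAP/TAZ#1 and at 35.3, 29.8, 31.6 and 31.7 CPM with siYAP/TAZ#2. All treated libraries were above all siCo libraries and the treated groups overlapped. The changes were 0.80 ± 0.06 with either combination (adjusted p = 8.34e-08 and 7.34e-08). Of its exon bases 38.6% overlap SAMD14 on the other strand, which itself rose from 0.833 to 1.91 and 2.45 CPM, and no source used here says whether reads were counted by strand. The level of SAMD14 was at most a few CPM, beside a gain of PDK2 from 18.5 to 32.2 and 32.1 CPM.

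PDK3 (ENSG00000067992, chromosome X, 24465221 to 24541862, plus strand) encodes the kinase with the highest activity of the family. Its libraries read 33.6, 32.4, 30.2 and 34.6 CPM in siCo, 48.8, 47.3, 47.2 and 50.6 CPM with siYAP/TAZ#1 and 38.9, 53.1, 48.0 and 55.2 CPM with siYAP/TAZ#2. The lowest treated library, siYAP/TAZ#2 replicate 1, still lay above the highest siCo library. PDK3 rose by 0.57 ± 0.09 and 0.58 ± 0.09 (adjusted p = 0.000105 and 7.77e-05). The rises of PDK2 and PDK3 kept their call under all 5 other scalings and without any single library. Per transcript length PDK1 went from 14.9% ± 1.82 of the TPM of the 3 kinases in siCo to 9.61% ± 1.81 and 7.90% ± 1.41, and every treated library lay below every siCo library. This share also moves with the other kinases. As TPM over coding genes, PDK1 stood at 5.01, 4.925 and 4.10, while PDK2 went from 20.8 to 33.4 and 34.9 and PDK3 from 7.8 to 12.7 and 13.1.

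The gene with the widest gap between the combinations was MPC2, a subunit of the carrier that takes pyruvate into mitochondria. MPC2 (ENSG00000143158, chromosome 1, 167916729 to 167937040, minus strand) stood at 48.7, 53.6, 53.8 and 55.9 CPM in siCo, at 12.4, 13.2, 10.9 and 10.96 CPM with siYAP/TAZ#1 and at 82.0, 66.1, 74.2 and 71.9 CPM with siYAP/TAZ#2. The 3 groups were far apart, siYAP/TAZ#1 below and siYAP/TAZ#2 above siCo. It fell with siYAP/TAZ#1 (log2 change -2.16 ± 0.08, adjusted p = 2.46e-11), to 22.4% of siCo, and rose by 0.47 ± 0.08 with siYAP/TAZ#2 (adjusted p = 0.000119), a difference of 2.63 ± 0.08 between the combinations (adjusted p = 7.52e-12). It was the 1 member called in opposite directions, beside 0.69% of all genes tested. DCAF6 on the other strand shares 22.5% of its exon bases and stood at 53.9 ± 3.39, 57.9 ± 3.86 and 69.9 ± 4.98 CPM, called with siYAP/TAZ#2 only (0.37, adjusted p = 0.000424). All 3 MPC2 calls held under the 5 other scalings and without any single library.

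Its partner subunit MPC1 was much lower in CPM, at 1.63 ± 0.294 in siCo, 1.86 ± 0.330 with siYAP/TAZ#1 and 2.40 ± 0.212 with siYAP/TAZ#2, and rose only in the last (0.56 ± 0.18, adjusted p = 0.0188; 0.19 ± 0.18 with siYAP/TAZ#1, not called). The call was lost without siCo replicate 4 or siYAP/TAZ#2 replicate 3 (adjusted p up to 0.0590), and the difference between the combinations was not called (0.37 ± 0.17). As a share of the TPM of both subunits MPC1 was 8.24% ± 1.75 in siCo, 30.9% ± 1.82 with siYAP/TAZ#1 and 8.59% ± 0.941 with siYAP/TAZ#2.

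In the pyruvate dehydrogenase complex itself DLAT, the acetyltransferase core subunit, fell with both combinations. DLAT (ENSG00000150768, chromosome 11, 112024814 to 112064390, plus strand) stood at 86.2, 83.9, 77.5 and 87.9 CPM in siCo, at 60.4, 63.1, 59.4 and 63.0 CPM with siYAP/TAZ#1 and at 39.1, 47.3, 45.8 and 48.2 CPM with siYAP/TAZ#2. The groups formed 3 separate steps. The changes were -0.45 ± 0.07 (adjusted p = 6.65e-05) and -0.90 ± 0.07 (adjusted p = 3.87e-08), and siYAP/TAZ#2 was lower than siYAP/TAZ#1 by the same amount again (-0.45 ± 0.07, adjusted p = 0.000182). With siYAP/TAZ#1 the call missed the threshold with TPM over coding genes (-0.31, adjusted p = 0.0529), and with siYAP/TAZ#2 it held under all 5 other scalings. The E1 subunits differed from this. PDHA1 (87.3 ± 3.97 CPM in siCo) changed by -0.18 ± 0.06 (adjusted p = 0.0321) and -0.12 ± 0.06 (not called), with the call lost without siCo replicate 1, 3 or 4 or siYAP/TAZ#1 replicate 1, 3 or 4 (adjusted p up to 0.0973) and held under 1 of the 5 other scalings, and 21.3% of its exon bases overlap MAP3K15 on the other strand, at 7.47, 7.22 and 7.04 CPM. PDHB (26.3 ± 1.72 CPM in siCo) was not called with either (0.11 ± 0.08 and 0.08 ± 0.08). PDHX, the subunit that binds the E3 enzyme to the core, is not among the 36 genes and was named after its values were seen. It rose from 27.3 to 33.3 and 35.7 CPM (0.29 ± 0.08, adjusted p = 0.00753, and 0.39 ± 0.08, adjusted p = 0.000717).

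Of the lactate exporters, SLC16A1, which encodes MCT1, fell and SLC16A3, which encodes the low-affinity exporter MCT4, was not called. SLC16A1 (ENSG00000155380, chromosome 1, 112911847 to 112957013, minus strand) stood at 70.6, 65.8, 63.4 and 71.5 CPM in siCo, at 46.2, 41.4, 45.2 and 53.3 CPM with siYAP/TAZ#1 and at 18.03, 25.02, 24.1 and 23.6 CPM with siYAP/TAZ#2. The groups were again 3 separate steps, down to 33.4% of siCo with siYAP/TAZ#2. The changes were -0.54 ± 0.09 (adjusted p = 0.000261) and -1.58 ± 0.10 (adjusted p = 4.07e-09), with a difference between the combinations of -1.03 ± 0.10 (adjusted p = 1.09e-06). With TPM over coding genes the call with siYAP/TAZ#1 was lost (-0.35, adjusted p = 0.0859), and the other 2 held under all 5 other scalings. SLC16A3 stood at 48.1 ± 2.01 CPM in siCo and changed by -0.09 ± 0.07 and 0.02 ± 0.07. Its share of the TPM of the pair was 42.1% ± 5.73 in siCo, 49.3% ± 6.30 with siYAP/TAZ#1, which overlapped siCo, and 68.0% ± 4.58 with siYAP/TAZ#2, which did not.

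TXNIP and ARRDC4 encode arrestin-domain proteins that restrain glucose uptake and are switched on by the glucose-sensing factors MondoA and ChREBP. Both were barely detected. TXNIP had 0 to 12 counts per library and means of 0.179 ± 0.148, 0.0982 ± 0.0598 and 0.243 ± 0.167 CPM, and was not tested. ARRDC4 stood at 0.397 ± 0.182 CPM in siCo and was not called (0.36 ± 0.38 and 0.67 ± 0.37), although every siYAP/TAZ#2 library lay above siCo. It was measured on 5 to 31 counts per library. FBP1, the enzyme that reverses the phosphofructokinase step, had 0 counts in 11 libraries and 2 counts in siYAP/TAZ#2 replicate 1.

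Between the combinations 7 of the 34 members were lower with siYAP/TAZ#2 and 2 higher, that is 20.6% and 5.88%, where 6.92% of all genes tested were lower and 8.2% higher (15.1% in either direction). The libraries of the 2 combinations did not overlap for 14 members, beside 18.2% of all genes. SLC16A1 and MPC2 were called with a difference of at least 1 on the log2 scale, as were 1.33% of all genes. The lower genes were SLC2A1, HKDC1, PFKFB2, ALDOC, ENO2, DLAT and SLC16A1, and the higher ones SLC2A3 and MPC2. For 25 members no difference was called, among them PKM (-0.15 ± 0.05), LDHA (0.06 ± 0.09), PDK2 (-0.0063 ± 0.06) and PDK3 (0.0093 ± 0.09), and the median over the 34 was -0.05 beside 0.0094 for all genes tested. For each gene 2 of the 4 libraries of a group are its lowest and highest, and a given library was one of them for 7 to 25 of the 34 members, with siYAP/TAZ#2 replicate 1 at 25 and siYAP/TAZ#1 replicate 3 at 24. Without siYAP/TAZ#2 replicate 1, 19 fell and 6 rose with siYAP/TAZ#2 against siCo, and 10 were lower and 3 higher than with siYAP/TAZ#1, where PFKM (-0.17), ALDOA (-0.19) and PKM (-0.15) joined the lower genes and LDHA (0.17) the higher ones.

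**Figure D5:**
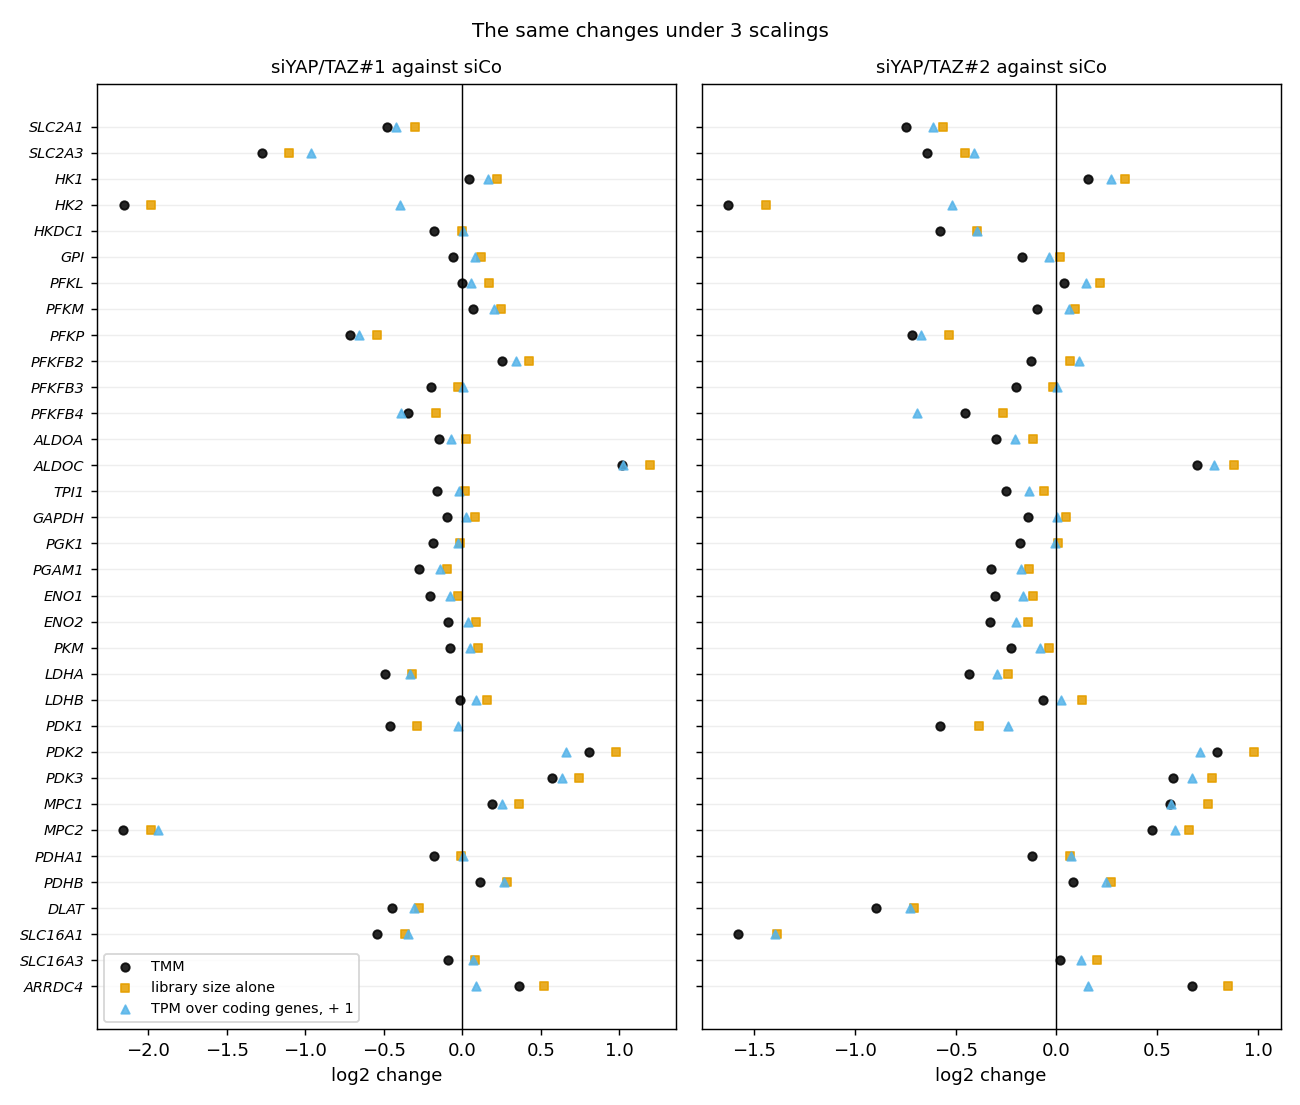
Log2 change of the 34 genes tested against siCo with siYAP/TAZ#1 (left) and siYAP/TAZ#2 (right) under TMM scaling, library size alone and TPM over coding genes with a pseudocount of 1. Nearly all genes shift to the right by about the same amount without TMM factors, the median of all genes moving from 0.02 to 0.20 and 0.21; small decreases such as that of TPI1 with siYAP/TAZ#1 then cross 0, while PFKP, SLC2A1 and SLC16A1 stay to the left.

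Other genes of the same metabolism gave a mixed picture. Of 41 further glycolysis, pyruvate and lactate genes 28 were tested, with medians of 0.08 and 0.07. Of these, 2 fell and 9 rose with siYAP/TAZ#1, beside 18.5% and 16.4% of all genes tested. With siYAP/TAZ#2, 7 fell and 12 rose, beside 19.2% and 19%. PDK4, the fourth pyruvate dehydrogenase kinase and a gene raised in fasting, rose from 33.3 to 54.2 and 67.1 CPM (0.70 ± 0.07 and 1.01 ± 0.07). LDHD, the mitochondrial enzyme for D-lactate, rose from 1.12 to 3.07 and 4.96 CPM (1.45 ± 0.19 and 2.14 ± 0.19). SLC2A12, a further glucose transporter, rose from 0.612 to 1.26 and 1.82 CPM (1.03 ± 0.22 and 1.57 ± 0.22), and GALM, which interconverts the anomers of sugars, from 15.2 to 23.3 and 22.2 CPM (0.61 ± 0.07 and 0.54 ± 0.07). The monocarboxylate transporter SLC16A7, named after its values were seen, rose with siYAP/TAZ#1 (0.56 ± 0.10) and fell with siYAP/TAZ#2 (-0.62 ± 0.11).

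The pentose phosphate branch, which makes NADPH and ribose from glucose 6-phosphate, had 2 of 8 genes lower and 3 higher with siYAP/TAZ#1, and 3 lower and 1 higher with siYAP/TAZ#2. RPIA, the ribose 5-phosphate isomerase, fell from 22.6 to 12.5 and 13.6 CPM (-0.86 ± 0.08 and -0.74 ± 0.08). In the citrate cycle, which takes up the acetyl-CoA made from pyruvate, 8 of 18 genes fell and 1 rose with siYAP/TAZ#1, and 5 fell and 2 rose with siYAP/TAZ#2, with medians of -0.17 and -0.07. As for the small changes of the members, these counts were made on the TMM scale. On it 18.5% of all genes tested fell and 16.4% rose with siYAP/TAZ#1, and 19.2% fell and 19% rose with siYAP/TAZ#2.

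The 15 regulators reported were all measured, and 5 fell and 4 rose with siYAP/TAZ#1, beside 18.5% and 16.4% of all genes tested. With siYAP/TAZ#2, 9 fell and 3 rose, beside 19.2% and 19%. Of the hypoxia-inducible factors, EPAS1, which encodes HIF2 alpha, fell from 902 CPM to 86.1 and 326.5 CPM (-3.39 ± 0.06 and -1.47 ± 0.05), HIF1A from 306 to 238 and 213 CPM (-0.36 ± 0.08 and -0.52 ± 0.08), and their shared partner ARNT rose (0.37 ± 0.07 and 0.44 ± 0.07). Among the genes of the oxygen-sensing machinery, VHL fell with siYAP/TAZ#2 (-0.63 ± 0.07; -0.02 ± 0.07 with siYAP/TAZ#1), as did EGLN1 (-0.43 ± 0.12; -0.30 ± 0.12, not called) and HIF1AN (-0.22 ± 0.07; -0.09 ± 0.07, not called). EGLN3 rose with siYAP/TAZ#1 (0.39 ± 0.10; -0.18 ± 0.10 with siYAP/TAZ#2, not called). MYC fell from 297 to 184 and 122 CPM (-0.69 ± 0.08 and -1.28 ± 0.08), lower with siYAP/TAZ#2 than with siYAP/TAZ#1 (-0.59 ± 0.08), while its partner MAX was not called (-0.07 ± 0.06 and -0.02 ± 0.06).

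Of the glucose-sensing factors, MLXIPL, which encodes ChREBP, rose from 2.99 to 11.2 and 8.07 CPM (1.90 ± 0.14 and 1.43 ± 0.15), its partner MLX fell (-0.49 ± 0.05 and -0.34 ± 0.05) and MLXIP, which encodes MondoA, was not called (0.01 ± 0.05 and 0.03 ± 0.05). PPARGC1A, a coactivator of mitochondrial genes, rose from 0.547 to 1.549 and 1.505 CPM (1.53 ± 0.31 and 1.49 ± 0.31) and the nuclear receptor ESRRA fell (-0.30 ± 0.09 and -0.25 ± 0.09). SP1 fell with siYAP/TAZ#2 (-0.16 ± 0.06; 0.01 ± 0.06 with siYAP/TAZ#1). Whether the changes of these regulators bear on the 36 genes was not tested.

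Promoter letters were compared over the 33 of 36 members that the RefSeq table (GRCh38.p14) holds, in the 250 bases before the first start listed, on both strands. PFKFB2, SLC16A1 and SLC2A3 are the members it lacks, so nothing is said of their promoters. CACGTG occurred in 5 members (ALDOC, ARRDC4, GAPDH, LDHA and PDHB), which is 15.2% beside 6.49% of 27305 promoters. ACGTG, which lies within every CACGTG, occurred in 12 (36.4% beside 18.7%), among them HK2, GPI, ALDOA, PGK1, ENO2, PDK3 and DLAT. The carbohydrate response element, a pair of E-box-like motifs at a fixed spacing, was found in TXNIP alone (3.03% beside 0.0586%). TGANTCA, the AP-1 motif, was found in ARRDC4 and ENO2 (6.06% beside 6.6%). CATTCC, the core bound by TEAD factors, was found in ENO1 and PGAM1 (6.06% beside 11.9%). Both genes were called lower with both combinations, calls that were lost with library size alone, and binding of TEAD factors was not tested. The windows of these 2 members, the only ones of the 33 with a match, are shown. They run from 150 to 91 bases before the start, with CATTCC or its reverse complement in capitals, at chr1:8878777-8878836 on the minus strand for ENO1 and chr10:97427668-97427727 on the plus strand for PGAM1. Both windows lie within the GENCODE spans of their genes, because the RefSeq and GENCODE starts differ.
ENO1: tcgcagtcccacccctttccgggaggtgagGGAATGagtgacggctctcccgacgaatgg
PGAM1: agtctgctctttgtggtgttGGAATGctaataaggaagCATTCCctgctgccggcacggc
PGAM1 holds the motif on both strands and ENO1 on 1. These are matches of letters, and genes with a match both fell and were not called: of the CACGTG genes LDHA fell, ALDOC rose, and GAPDH, PDHB and ARRDC4 were not called with either combination.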

How the data were processed

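Each of the 12 A549 libraries came with a table of estimated counts and a table of TPM. Reads were handled with kallisto 0.4.6 and Trim Galore 0.6.4 on the build GRCh38.p13, as listed without roles in the submitters' processing notes. Strandedness and the summing of transcripts to genes were stated nowhere in the labels. The estimated counts were deposited by the authors without further scaling. The TPM values were deposited by the authors as such, and they were rescaled here over protein-coding genes for levels. Isoenzyme shares were taken from the deposited TPM. Groups and replicate numbers came from the sample titles. Replicate numbers were not used to pair libraries.

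Estimated counts were rounded and fitted with edgeR 4.0.16 in R 4.3.3 (TMM, filterByExpr defaults, group as the only term, all 12 libraries), with Benjamini-Hochberg adjustment over 21581 genes. DESeq2 1.42.0 and limma 3.58.1 served for alternatives. A count of 10 was worth 0.25 to 0.375 CPM, which limits the precision of HK2, MPC1, TXNIP and ARRDC4. The pipeline was tested on simulated data. Libraries of a group differed by more than sampling noise, so all were kept as replicates. Coordinates are 1-based, from GENCODE on GRCh38.

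The 36 genes, the lists and the tests were chosen with earlier results of these data known. Libraries were listed for genes called with both combinations in one direction with an absolute log2 change of at least 0.5 in one of them, for genes called in opposite directions and for the 6 most different between the combinations. LDHA was added after its values were seen. Genes of the further lists were named where called with both at 0.5 or more in each, and regulators were named whatever their values, except that some of that list are not reported here.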

Additional observations from a re-analysis of the deposited data

Results flagged for a closer look

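In 102 sets of 4 libraries (34 genes in 3 groups), 4 held a library set apart from its group by Dixon's criterion, where chance alone flags about 1 in 20 sets. Of these, 2 lay in siYAP/TAZ#2 replicate 1, in which PFKL stood at 151.6 CPM beside 108.3 to 113.4 CPM in the other 3 libraries, and LDHA at 693.3 CPM beside 941.1 to 978.9 CPM. PFKFB3 stood at 773.5 CPM in siCo replicate 4, beside 843.9 to 847.6 CPM in the others. SLC16A3 stood at 51.1 CPM in siCo replicate 2, beside 46.7 to 47.4 CPM. PFKL and SLC16A3 were not called in any comparison.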

How the results depend on the processing

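Counts are given as lower/higher members for siYAP/TAZ#1, siYAP/TAZ#2 and the comparison of the combinations, in that order. Shares of all genes called were taken only for the counts as reported, so those of the other settings have none beside them. They were 16/4, 18/6 and 7/2 as reported. Library size alone gave 8/7, 8/9 and 6/2. Upper quartile factors gave 11/7, 15/6 and 8/2, and relative log expression factors 16/4, 18/6 and 8/2. DESeq2 gave 16/4, 18/6 and 9/2. Limma on log2(TPM + 1) gave 1/2, 1/5 and 0/1, and with a pseudocount of 0.1 it gave 1/3, 2/5 and 0/1. The zero counts there came from limma, and edgeR gave 7. Limma on TPM over coding genes gave 6/7, 11/7 and 4/2, and edgeR on coding genes alone 15/4, 18/6 and 9/2, both chosen after seeing the data. No filter on low counts gave 11/4, 16/5 and 7/2, and 2 groups per fit 17/4, 18/5 and 6/2. A minimum change of 0.5 gave 5/3, 8/4 and 1/2. The replicate number as a block changed no call (16/4, 18/6 and 7/2). Deviations of the replicate 4 libraries correlated across groups (0.148 to 0.208), and these libraries had the lowest miRNA share of TPM in their groups (44.9%, 28.0% and 26.3%). The correlations of numbers 1 to 3 ran from -0.153 to 0.102, and those between unlike numbers from -0.283 to 0.204. The numbers were therefore not taken to pair the libraries. Leaving out each library in turn gave 13 to 18 lower and 3 to 4 higher with siYAP/TAZ#1, 17 to 19 and 4 to 6 with siYAP/TAZ#2, and 6 to 10 and 2 to 3 between the combinations.

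Some called decreases turned positive. With library size alone these were TPI1 with siYAP/TAZ#1 (0.016) and GPI with siYAP/TAZ#2 (0.016). With TPM over coding genes they were HKDC1 (0.0062), PFKFB3 (0.0046) and PDHA1 (0.0060) with siYAP/TAZ#1, and PFKFB3 (0.0046) with siYAP/TAZ#2. On the deposited TPM, in which miRNA genes took 44.9% to 62.8% in siCo and down to 26.3% in treated libraries, the values with pseudocounts of 1 and 0.1 with siYAP/TAZ#1 were 0.23 and 0.24 for HKDC1, 0.23 and 0.24 for PFKFB3, 0.21 and 0.21 for TPI1, 0.088 and 0.088 for PGAM1, 0.15 and 0.15 for ENO1, 0.13 and 0.18 for PDK1, and 0.23 and 0.24 for PDHA1. With siYAP/TAZ#2 they were 0.26 and 0.26 for GPI, 0.30 and 0.30 for PFKFB3, 0.088 and 0.088 for ALDOA, 0.16 and 0.16 for TPI1, 0.12 and 0.12 for PGAM1, 0.13 and 0.13 for ENO1, 0.091 and 0.093 for ENO2, 0.21 and 0.21 for PKM, and, with 0.1 only, 0.0011 for PDK1. None of these passed the threshold (limma, edgeR). The cause was not tested. Shares taken from CPM moved the SLC2A3 share with siYAP/TAZ#1 from -2.05 to -4.26 percentage points and the PFKP share with siYAP/TAZ#2 from -9.56 to -8.85. Depth limited HK2 and MPC1, with 11 to 99 counts per library, and the untested TXNIP and FBP1.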
